A study of Mus musculus with 3 samples.

Results

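Immediate early genes were followed through single cells of the mouse dentate gyrus. The group was the 10 genes Fos, Jun, Junb, Jund, Egr1, Atf3, Ier2, Dusp1, Btg2 and Cyr61, chosen by name, out of 15535 genes listed in at least 1 of the 3 count tables, and all 10 were listed in every table. Cells came from 3 droplet libraries, 1 per group. The control group was 8 weeks old in standard housing, the runner group was littermates of the same age with a running wheel for 12 days, and the aged group was 14 months old without a wheel. The sample labels give the strain of all 3 as hGFAP-eGFP, a reporter mouse with green fluorescent protein under the human GFAP promoter, whereas in the series design the mice are WT and the reporter appears with the aged group only. How many mice were pooled per library is not stated in those sources. Because each group is a single library, groups could not be tested against each other. Every interval below is a 95% interval that covers counting error only, and library, batch and group cannot be told apart.

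Immediate early genes are transcribed within minutes of a stimulus, without new protein synthesis, through factors such as SRF with its ternary complex partners and CREB that are already present in the cell. Neuronal firing, growth factors, cytokines and the handling of tissue all induce them, and in the dentate gyrus Fos and Egr1 are widely used as marks of recently active granule neurons. Several members encode the transcription factors of the next wave: Fos pairs with Jun, Junb or Jund to form AP-1, Atf3 is a stress-induced ATF/CREB family factor, and Egr1 is a zinc finger factor. Dusp1 is a phosphatase that switches off MAP kinases, Btg2 is an antiproliferative co-regulator of mRNA decay, Ier2 is a small nuclear protein, and Cyr61 is a secreted matrix protein that binds integrins.

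The promoters of 4 members are shown because these genes represent the patterns described below: Fos and Jun in most cell classes, Atf3 at high level in microglia-like cells and low in the other large classes, and Cyr61 in astrocyte-like and oligodendrocyte-precursor-like cells but hardly in microglia-like cells. Each is the 250 bases before the start site in RefSeq (GRCm38.p6), written 5′ to 3′ on the strand of the gene, at chr12:85473640-85473889, plus strand for Fos, chr4:95052223-95052472, minus strand for Jun, chr1:191183334-191183583, minus strand for Atf3 and chr3:145649986-145650235, minus strand for Cyr61, which RefSeq lists as Ccn1. Capitals mark matches on either strand to the cyclic AMP response element half-site TGACGT, to TGACNTCA, and to the TATA box TATAAA.
Fos: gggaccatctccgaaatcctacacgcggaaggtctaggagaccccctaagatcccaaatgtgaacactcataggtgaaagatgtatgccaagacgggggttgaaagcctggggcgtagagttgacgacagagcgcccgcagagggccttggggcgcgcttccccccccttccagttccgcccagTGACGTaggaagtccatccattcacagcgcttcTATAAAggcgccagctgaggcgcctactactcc
Jun: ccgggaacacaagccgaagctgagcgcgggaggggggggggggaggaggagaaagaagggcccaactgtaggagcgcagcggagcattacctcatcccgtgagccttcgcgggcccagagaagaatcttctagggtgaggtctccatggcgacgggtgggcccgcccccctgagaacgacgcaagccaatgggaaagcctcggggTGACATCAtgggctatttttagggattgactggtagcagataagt
Atf3: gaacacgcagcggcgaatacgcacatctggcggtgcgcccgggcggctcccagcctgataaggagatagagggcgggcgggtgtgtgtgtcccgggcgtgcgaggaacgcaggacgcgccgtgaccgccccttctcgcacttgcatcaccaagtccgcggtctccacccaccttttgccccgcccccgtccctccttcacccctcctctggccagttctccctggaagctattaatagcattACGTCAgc
Cyr61: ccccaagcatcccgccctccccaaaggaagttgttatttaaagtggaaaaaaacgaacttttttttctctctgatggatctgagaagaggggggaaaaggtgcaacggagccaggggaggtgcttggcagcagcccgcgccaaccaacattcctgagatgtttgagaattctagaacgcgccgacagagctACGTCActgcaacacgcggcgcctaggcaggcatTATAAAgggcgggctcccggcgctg
RefSeq windows were found for 8 of the 10 members, with Egr1 and Ier2 not in the table. A TGACGT half-site lay in 5 of the 8 windows (Fos, Atf3, Dusp1, Btg2 and Cyr61), against 6.56% of 27025 windows of the same length. TGACNTCA, of which the palindrome TGACGTCA holds 2 overlapping half-sites, lay in 3 of 8 (Jun, Dusp1 and Btg2), against 7.59%. The Jun match was TGACATCA, and Dusp1 and Btg2 each held TGACGTCA. TATAAA lay in Fos and Cyr61, at 33 and 25 bases before the start, against 13% of windows. No window held the AP-1 motif TGANTCA (6.87% of windows) or a CArG box (1.4%), and sequence beyond the 250 bases was not searched.

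In the GENCODE M21 annotation of GRCm38, Fos spans chr12:85473890-85477273, Jun chr4:95049034-95052222, Atf3 chr1:191170296-191218039, Btg2 chr1:134075170-134079120 and Cyr61, there named Ccn1, chr3:145646976-145649981. Junb, Jund and Ier2 all lie on chromosome 8, and Dusp1 on chromosome 17. The counts are per gene from 3′ ends, so they assign no exon or isoform.

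After filtering, 512 control, 963 runner and 391 aged cells were used, with medians of 1460, 1747 and 1409 UMIs, and the cells were clustered without the members and their companion genes. Of the 14 microglial, 15 astrocyte, 13 oligodendrocyte, 11 oligodendrocyte-precursor and 11 Cajal-Retzius markers, every one had UMIs in its own class in all 3 libraries. The neuroblast-like class had 11, 12 and 7 of 12 markers in control, runner and aged, and held 12 aged cells. One neuronal cluster, number 6, was led by Meg3, Atp1b1 and Grin2b. Its 10 leading genes held 1 marker of pyramidal neurons, Nrgn, and none of the granule-neuron list, although all 13 granule-neuron markers, Prox1 among them, had UMIs in it and Neurod6 and Meis2 were at 0. It is called neuron cluster 6 here. The 7 classes named so far are ranked and compared below, and 3 small ones with fewer than 20 cells in every library (endothelial-like, perivascular-macrophage-like and cycling cells) are given apart. Across all barcodes, 28 cell barcodes occurred in more than 1 library, of which 2 were among the cells used.

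Among the 7 larger classes, microglia-like cells carried the highest level of immediate early transcripts. The 10 members summed to 37333 CPM (UMI counts scaled to the class total, as CPM; 36704 to 37970) in the control library, 38123 (37620 to 38630) in the runner library and 33171 (32520 to 33832) in the aged library, so that 3.73%, 3.81% and 3.32% of all UMIs of the class came from these genes. Cajal-Retzius-like cells, reelin-secreting neurons born early in development, came next of these classes at 12701, 14444 and 10147 CPM. Oligodendrocyte-precursor-like cells followed at 10253, 9264 and 7152, and neuroblast-like cells, which are immature neurons, at 5427, 6066 and 4202. Astrocyte-like cells were at 2025, 3062 and 2054 CPM and oligodendrocyte-like cells at 2547, 1845 and 1852. Of these 7 classes neuron cluster 6 was lowest in all 3 libraries, at 847 (631 to 1114), 795 (662 to 947) and 933 (615 to 1358). A list of 28 dissociation-stress genes was also highest in microglia-like cells (27628, 28384 and 22042 CPM) and lowest in neuron cluster 6 (5198, 4223 and 3526). Astrocyte-like cells came second for that list, at 23033, 16453 and 19375 CPM, unlike for the members. The part of dissociation in the order of classes was not tested.

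The small classes were not low. The 10 perivascular-macrophage-like cells of the runner library, macrophages of the vessel border led by Lyz2 and Pf4, held the members at 31823 CPM (28821 to 35054), below microglia-like cells of that library and above Cajal-Retzius-like cells; control had 1 such cell and aged 0. Cycling cells, a cluster led by Pclaf and Ccl4, a chemokine, were at 13618 (12004 to 15389), 13007 (12006 to 14068) and 41204 (35596 to 47445) CPM from 10, 15 and 3 cells, so that the 3 aged cells stood above aged microglia-like cells. Endothelial-like cells were at 11545 (10176 to 13046), 7069 (5229 to 9345) and 8441 (6969 to 10132) from 17, 7 and 9 cells. Egr1 in cycling cells, at 2173, 1334 and 3629 CPM, was above its microglia-like level in each library, with intervals apart in aged. Ier2 in cycling cells, at 901, 625 and 4056 CPM, was above its microglia-like level in the aged library alone. In runner perivascular-macrophage-like cells Ier2 was at 2555 CPM (1759 to 3588), an interval that overlapped that of microglia-like cells.

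**Figure D1:**
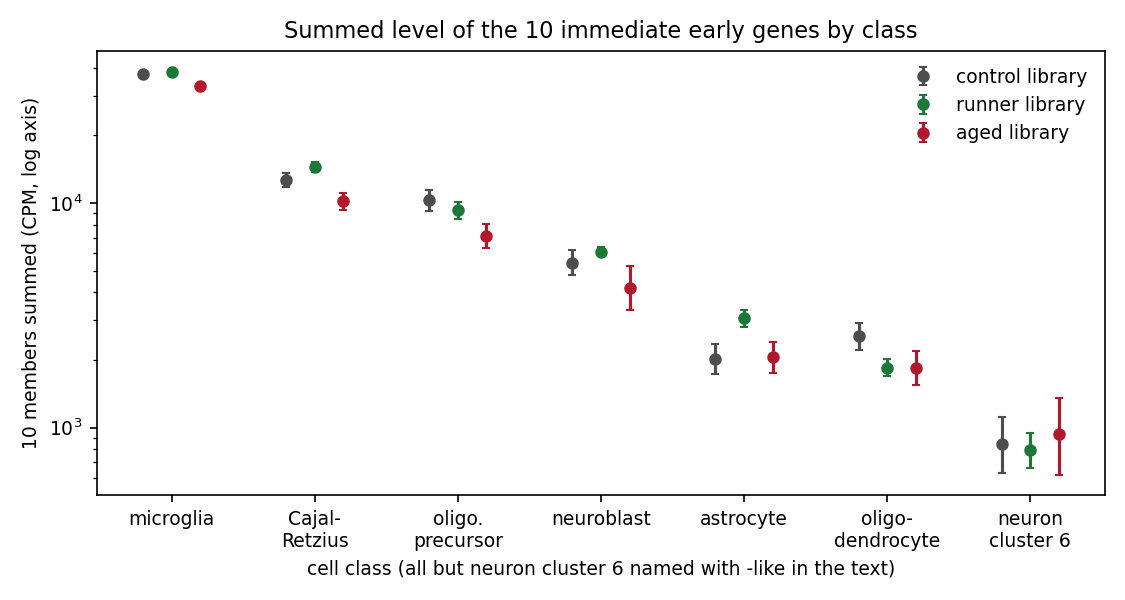
Summed level of the 10 members (CPM, log axis) in each of the 7 larger cell classes; points are the 3 libraries and bars are exact Poisson 95% intervals for counting error. Microglia-like cells lie between 33171 and 38123 CPM and neuron cluster 6 between 795 and 933.

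The order microglia-like, Cajal-Retzius-like, oligodendrocyte-precursor-like was the same in 3 of 3 libraries, and the intervals of these neighbours did not overlap. Microglia-like cells exceeded Cajal-Retzius-like cells 2.94-fold (2.73 to 3.16) in control, 2.64-fold (2.51 to 2.77) in runner and 3.27-fold (2.98 to 3.59) in aged. Astrocyte-like and oligodendrocyte-like cells changed places between libraries. The ratio of astrocyte-like to oligodendrocyte-like cells was 0.795 (0.647 to 0.975) in control, 1.66 (1.47 to 1.88) in runner and 1.11 (0.878 to 1.4) in aged. Between microglia-like and astrocyte-like cells the summed ratio was 18.4 (15.9 to 21.5), 12.5 (11.4 to 13.6) and 16.1 (13.8 to 19) in the same order. With at least 20 UMIs required in each library, 8 of the 9 members measured were 5-fold or more higher in microglia-like than in astrocyte-like cells in 3 of 3 libraries, where 16.2% of 2518 genes were. The exception was Jund.

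Among the AP-1 genes, Jun and Fos were the most abundant members in microglia-like cells. Jun was at 9102, 8935 and 8555 CPM and Fos at 7719, 7956 and 6848 in control, runner and aged. Junb reached 6988, 6645 and 5978 there. Jun was also high in oligodendrocyte-precursor-like cells (3800, 4061 and 3065 CPM), where it exceeded Junb (814, 1041 and 681), whereas Cajal-Retzius-like cells held Jun (3445, 2998 and 2709) and Junb (2122, 2908 and 2193) at closer levels. UMIs count 3′ ends, 1 per captured transcript, so these levels are not scaled by gene length. Jund, the AP-1 subunit usually described as constitutive, lay between 34.5 and 332 CPM over the 7 classes and 3 libraries. Its intervals overlapped between every pair of neighbours in the order of the 5 classes with at least 20 cells in each library. Classes further apart in that order did differ. Cajal-Retzius-like cells exceeded astrocyte-like cells in Jund 8.99-fold (2.65 to 47.4) in control, 4.29-fold (1.96 to 10.4) in runner and 2.63-fold (0.931 to 8) in aged.

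Among the larger classes, Egr1 and Ier2 were also highest in microglia-like cells, and both were well detected in neuroblast-like and Cajal-Retzius-like cells. Egr1 was at 1583, 1309 and 1428 CPM in microglia-like cells and at 817, 899 and 916 in neuroblast-like cells. Cajal-Retzius-like cells held Egr1 at 522, 855 and 903 CPM and oligodendrocyte-precursor-like cells at 694, 487 and 341, so the order of these classes in the control library was the reverse of that in the other libraries. In astrocyte-like cells Egr1 was at 69, 91.1 and 89.9 CPM. Ier2 was at 2484, 1972 and 1808 CPM in microglia-like cells, at 1567, 1719 and 645 in Cajal-Retzius-like cells and at 954, 987 and 377 in neuroblast-like cells. The intervals of Ier2 in microglia-like and Cajal-Retzius-like cells overlapped in the runner library and not in the other libraries.

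Among the larger classes, Atf3 was high in microglia-like cells alone. Its level there was 2673 (2507 to 2848), 3047 (2906 to 3193) and 2073 (1913 to 2243) CPM. Over the other 6 it ranged from 0 to 131 CPM, and the highest value rested on 8 UMIs in control Cajal-Retzius-like cells. Of the small classes, runner perivascular-macrophage-like cells had Atf3 at 2400 CPM (1631 to 3407), in 7 of 10 cells, and cycling cells at 318, 604 and 2135 CPM. Control endothelial-like cells were at 404 CPM (185 to 767), from 9 UMIs. Neither oligodendrocyte-precursor-like nor neuroblast-like cells had an Atf3 UMI in the control or aged library. A count of 0 allows up to 90.5 CPM (3 counts of the class total) in control oligodendrocyte-precursor-like cells and up to 34.5 CPM in control astrocyte-like cells, which also had none.

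Cyr61 had another distribution. In microglia-like cells it had 1 UMI in 244 control cells and 0 in 352 runner and 201 aged cells. Astrocyte-like cells held Cyr61 at 57.5 (18.7 to 134), 211 (148 to 290.2) and 64.2 (20.8 to 149.8) CPM, and oligodendrocyte-precursor-like cells at 211 (84.9 to 435), 101 (37 to 219) and 105 (28.6 to 268). Cajal-Retzius-like and oligodendrocyte-like cells had 0 Cyr61 UMIs in 3 of 3 libraries. The intervals of astrocyte-like and oligodendrocyte-precursor-like cells overlapped in every library and lay above the microglia-like interval in each. Endothelial-like cells had 2, 0 and 3 Cyr61 UMIs, or 89.8 (10.9 to 325) CPM in control and 220.2 (45.4 to 644) in aged.

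Dusp1 and Btg2 were also highest in microglia-like cells among the larger classes, although Btg2 was at 8326 CPM (5921 to 11382) in the 3 aged cycling cells. Dusp1 was at 3252, 4456 and 3034 CPM and Btg2 at 3380, 3621 and 3253. Cajal-Retzius-like cells held Dusp1 at 963, 1654 and 859.9 CPM and Btg2 at 1126, 1092 and 881. In astrocyte-like cells both stayed between 148 and 242 CPM.

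**Figure D2:**
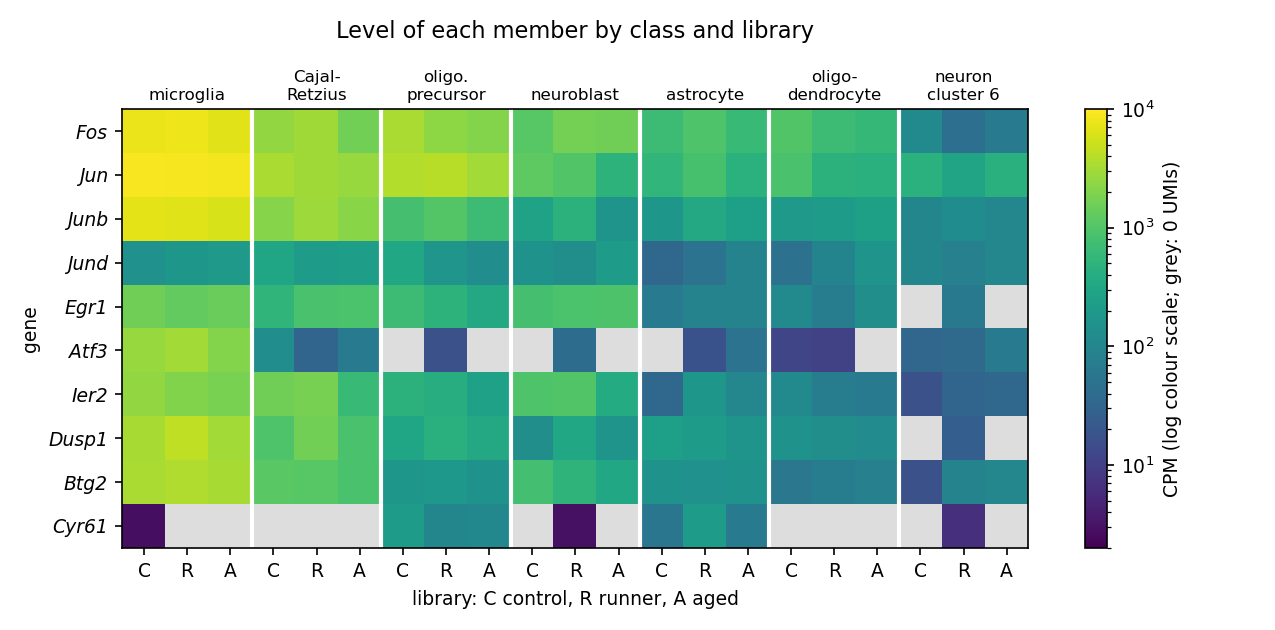
Level of each member (rows; CPM, log colour scale, grey for 0 UMIs) in each class and library (columns; C control, R runner, A aged). Atf3 lies above 2000 CPM in microglia-like cells and at 131 or below in the other 6 classes shown, and Cyr61 has 1 UMI in microglia-like cells.

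RNA released by broken cells enters every droplet, so the level of microglial markers in other classes was set beside the members. The 14 microglial markers summed to 0.674%, 0.78% and 1.01% of their microglia-like level in astrocyte-like cells of the control, runner and aged libraries, where the members stood at 5.42%, 8.03% and 6.19%. In Cajal-Retzius-like cells the markers were at 1.31%, 0.67% and 0.638% and the members at 34%, 37.9% and 30.6%. In neuron cluster 6 they were close together: markers at 2.07%, 0.697% and 1.1%, members at 2.27%, 2.09% and 2.81%. There the interval of Jun and Jund alone lay above that of the markers in 3 of 3 libraries. Fos in neuron cluster 6, at 116, 44.5 and 69.1 CPM from 7, 7 and 2 UMIs, did not exceed the marker share in any library. The part of released RNA in these few UMIs was not tested. The interval of Atf3 lay above that of the markers in no library in oligodendrocyte-precursor-like, neuroblast-like, astrocyte-like or oligodendrocyte-like cells. In astrocyte-like cells 8 members lay above the marker interval in 3 of 3 libraries, among them Cyr61, and Ier2 did so in at least 1. The share of all genes above that interval is not given, so these counts do not set the members apart from other genes.

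**Figure D3:**
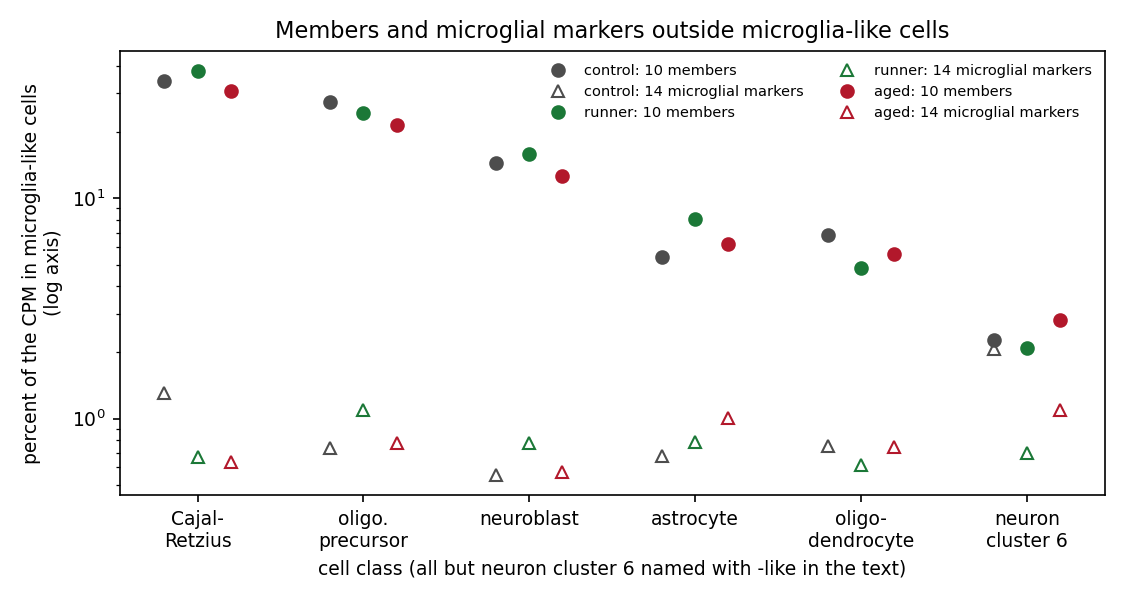
Members (circles) and 14 microglial markers (open triangles) in 6 classes, as percent of their CPM in microglia-like cells of the same library (log axis). Circles lie above triangles throughout, by least in neuron cluster 6 of the control library, at 2.27% against 2.07%.

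Cell by cell, most members were detected in most microglia-like cells. After every cell was thinned to 1000 UMIs, which left 195, 302 and 134 of 244, 352 and 201 cells, the median microglia-like cell had 7 of the 10 members in each library. At least 5 members were found in 96.9% (93.4 to 98.9) of control microglia-like cells, and in 94.3% of them without thinning. Taken singly, Fos, Jun, Junb and Btg2 were each detected in 92.8% to 99% of thinned control microglia-like cells. For Egr1, Atf3, Ier2 and Dusp1 this was 75.4% to 81.5%. High counts per cell follow from such detection of single genes, so they do not show that members occur together. Cajal-Retzius-like cells had medians of 5, 5 and 4.5 members, oligodendrocyte-precursor-like cells 4, 4 and 3, and neuroblast-like cells 3 in each library. Astrocyte-like cells had 0, 1 and 1, and oligodendrocyte-like cells 1, 1 and 0.5. No cell of neuron cluster 6 had 3 or more members among 24, 55 and 10 thinned cells, although without thinning single cells reached 4, 4 and 5.

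**Figure D4:**
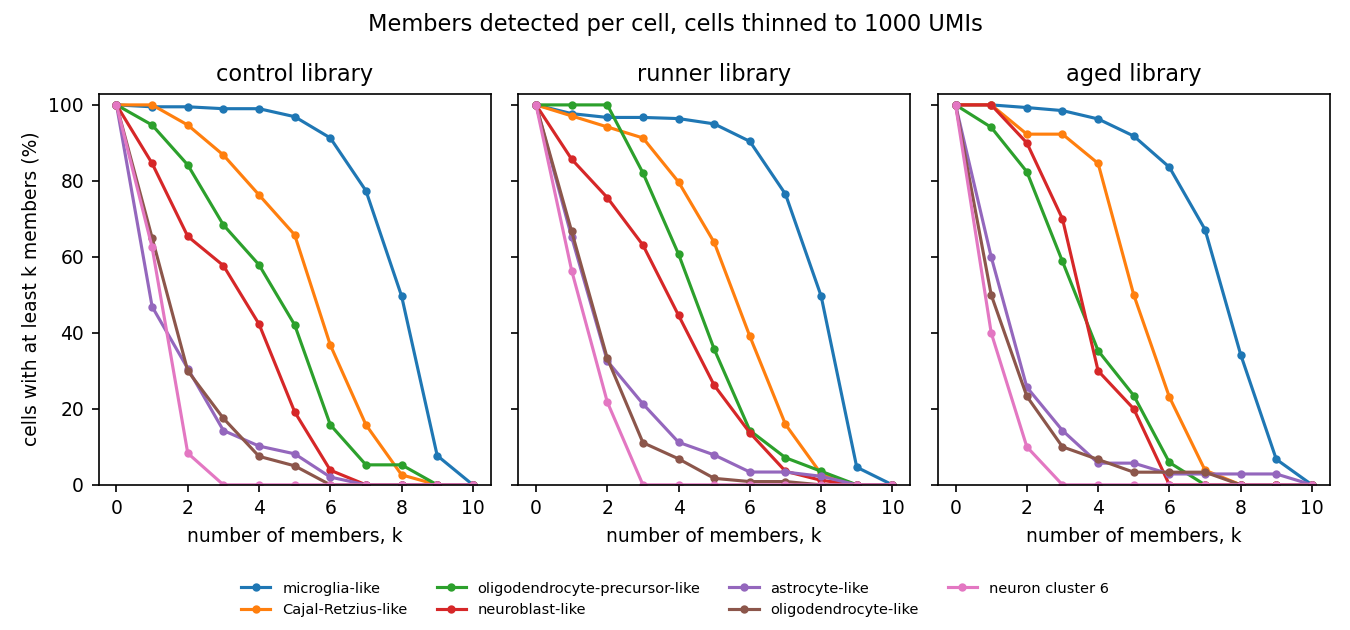
Percent of cells with at least k of the 10 members (k on the horizontal axis) after thinning to 1000 UMIs, one line per class and one panel per library. At 4 members microglia-like cells stand at 99%, 96.4% and 96.3%, and neuron cluster 6 has no cell beyond 2.

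Detection was nearly complete in the large microglia-like clusters and not in a small one. The class was made of clusters 0, 2 and 8. In clusters 0 and 2 together, 3 of 762 cells (0.394%) had no member UMI, whereas in cluster 8 this was 19 of 35 cells (54.3%). Cluster 8 held 7, 21 and 7 cells of the control, runner and aged libraries, with member levels of 153, 2625 and 1208 CPM against 40786, 41814 and 35385 in cluster 0. Microglial markers in cluster 8 stood at 31907, 20244 and 37286 CPM, and its cells had medians of 373, 436 and 380.0 genes against 792, 840.0 and 858 in cluster 0. Its leading gene was the haemoglobin gene Hbb-bs, at 27962 CPM in the runner library and 153 and 345 in control and aged. The part of depth and of red cell RNA in this difference was not tested.

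Many pairs of members were found together in the same cells. In microglia-like cells 18 of 23 pairs with enough cells on both sides (at least 5 with and 5 without the first gene, and 5 with the second) had the second gene more often in cells with the first, in 3 of 3 libraries. Atf3, for example, was found in 82.4%, 87.4% and 77.9% of microglia-like cells with Fos and in 14.3%, 11.8% and 33.3% of the 7, 17 and 12 cells without Fos. In astrocyte-like cells this held for 5 of 6 pairs. Jun was detected in 57.1%, 60.7% and 55.6% of astrocyte-like cells with Fos and in 17.1%, 24.6% and 19.2% of those without. In Cajal-Retzius-like cells it held for 5 of 22 pairs. Cells of 1 library share their source, so these counts are descriptions, and no share for pairs of other genes is set beside them. No member at all was found in 1, 7 and 0 of the thinned microglia-like cells, and the part of member-poor cells in the pairs was not tested.

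In classes of low level a few cells supplied much of the signal. The 3 astrocyte-like cells with the most member UMIs held 37.5%, 27.3% and 67.5% of the class total in control, runner and aged, and 1 aged cell held 64 of 160 UMIs. These 9 cells had 4 to 10 members each, and the 3 of each library held 2, 3 and 1 UMIs of microglial markers. No member was detected in 24 of 64 control, 39 of 124 runner and 24 of 52 aged astrocyte-like cells. In oligodendrocyte-like cells the top 3 cells held 36.9%, 17.6% and 42.3%, whereas in microglia-like cells they held 2.88%, 2.25% and 4.28%.

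Runner against control sets the library of the running group beside that of standard housing, and running and library cannot be told apart in it. In astrocyte-like cells the members were higher in the runner library. The summed ratio was 1.51 (1.27 to 1.8), from 538 UMIs in 124 runner cells and 176 UMIs in 64 control cells. Of 8 members whose UMIs in the 2 libraries came to at least 20, 4 were 1.5-fold or more higher, where 19.4% of 2009 genes were, and 0 were 1.5-fold or more lower, where 10.1% were. Their median log2 ratio was 0.54, and that of all genes measured was 0.03. The 4 were Ier2 at 5.28 (1.65 to 26.9), Cyr61 at 3.66 (1.44 to 11.9), Junb at 1.82 (1.04 to 3.4) and Jun at 1.53 (1.09 to 2.16). Fos stood at 967 against 690.3 CPM, a ratio of 1.4 (1.04 to 1.91). Dusp1 and Btg2 stood at 0.895 (0.512 to 1.61) and 0.919 (0.462 to 1.9).

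The Ier2 ratio rested on 3 UMIs in control and 32 in runner cells, and Cyr61 on 5 and 37 UMIs in 4 of 64 and 20 of 124 cells. Without the 3 cells of most member UMIs in each library, the sum was 1.71 (1.38 to 2.13) and Cyr61 4.33 (1.33 to 22.3), but Ier2 was at 3.36 (0.773 to 30.5), an interval that includes 1, and Dusp1 at 1.55 (0.714 to 3.72). Markers of neural stem cells moved with the members: 11 listed markers, which include Hopx and Thrsp, were at 3440 (3061 to 3853) CPM in control and 5219 (4886 to 5568) in runner astrocyte-like cells. The 28 dissociation-stress genes, which include the metallothioneins Mt1 and Mt2, moved the other way, from 23033 to 16453 CPM. The part of either in the result was not tested.

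In microglia-like cells no member differed by that much. Of 9 members measured, 0 were 1.5-fold or more higher in runner than in control, where 14.7% of 5108 genes were, and 0 were 1.5-fold or more lower, where 8.91% were. The summed ratio was 1.02 (0.999 to 1.04). Within this flat sum, single members moved apart by more than counting error: Dusp1 stood at 4456 against 3252 CPM (1.37, 1.28 to 1.47) and Atf3 at 1.14 (1.05 to 1.23). Ier2 was at 0.794 (0.726 to 0.867) and Egr1 at 0.827 (0.741 to 0.924). The class was made up differently in the 2 libraries: cluster 0 was 55.7% of control and 77.3% of runner cells, and cluster 2 was 41.4% and 16.8%. Within clusters 0 and 2, Dusp1 was at 1.26 (1.16 to 1.37) and 1.43 (1.22 to 1.67), Ier2 at 0.834 and 0.799, and Egr1 at 0.827 and 0.789. Atf3 was at 1.16 (1.05 to 1.27) in cluster 0 and 1 (0.844 to 1.19) in cluster 2.

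In the other classes the runner values went in both directions. Cajal-Retzius-like cells had 2 of 8 members 1.5-fold or more higher (18.2% of genes), Dusp1 at 1.72 (1.28 to 2.34) and Egr1 at 1.64 (1.09 to 2.51), and 0 lower (10.1%). Neuroblast-like cells had 3 of 8 higher (26.8%), Dusp1, Junb and Fos, and 1 lower (14.3%), Btg2 at 0.65 (0.451 to 0.964). The neuroblast-like comparison set 171 runner cells against 32 control cells. Oligodendrocyte-like cells had 1 of 8 higher (17.6%) and 3 lower (14.1%), with Jun at 0.553 (0.412 to 0.747). Oligodendrocyte-precursor-like cells had 1 of 7 higher (17.5%) and 1 lower (14.5%). In neuron cluster 6 the summed ratio was 0.939 (0.673 to 1.33), from 125 runner and 51 control UMIs.

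Aged against control addresses the effect of age without running, and it shares its control library with the comparison above. In microglia-like cells the 9 members measured had ratios from 0.728 to 1.3, and the summed ratio was 0.889 (0.866 to 0.912). Of these 9, 0 were 1.5-fold or more higher (15.3% of 4040 genes) and 0 were 1.5-fold or more lower (10.8%). The lowest ratios were those of Ier2 at 0.728 (0.653 to 0.811) and Atf3 at 0.776 (0.7 to 0.859), and the highest was that of Jund at 1.3 (0.88 to 1.92). The median log2 ratio was -0.15, and that of all genes measured was 0.04. The 28 dissociation-stress genes were lower too, at 27628 (27087 to 28176) CPM in control and 22042 (21512 to 22582) in aged microglia-like cells, and their part in the result was not tested.

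In astrocyte-like cells the aged sum was level with control at 1.01 (0.814 to 1.26), but this rested on few cells. Without the 3 cells of most member UMIs in each library, it was 0.541 (0.382 to 0.76), from 52 UMIs in 49 aged and 110 in 61 control cells. Of 5 members measured, 0 were 1.5-fold or more higher (13.4% of genes) and 0 lower (14%).

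In 4 further classes the aged sums lay below control, 1 of them, the neuroblast-like class, with 12 aged cells. The ratio was 0.799 (0.711 to 0.897) in Cajal-Retzius-like, 0.698 (0.593 to 0.82) in oligodendrocyte-precursor-like, 0.727 (0.582 to 0.905) in oligodendrocyte-like and 0.774 (0.592 to 1) in neuroblast-like cells. Neuron cluster 6 did not share this, at 1.1 (0.665 to 1.79), from 27 UMIs in 14 aged cells and 51 in 31 control cells. The stress genes were also lower in aged than in control Cajal-Retzius-like (6493 against 10024 CPM) and neuroblast-like cells (6572 against 8401), with overlapping intervals in the latter. They were at 7309 against 7599 in oligodendrocyte-precursor-like and 7975 against 7356 in oligodendrocyte-like cells, and their part was not tested. In Cajal-Retzius-like cells Ier2 had the lowest ratio, 0.412 (0.264 to 0.626), and Egr1 the highest, 1.73 (1.07 to 2.83), or 1.37 (0.779 to 2.39) without the 3 cells of most member UMIs. There, 1 of 8 members was 1.5-fold or more higher (13.3% of genes) and 2 were lower (19.7%). Oligodendrocyte-precursor-like cells had 0 of 6 higher (13.4%) and 3 lower (19%), oligodendrocyte-like cells 0 of 5 higher (16.4%) and 2 lower (17.9%), and neuroblast-like cells 0 of 5 higher (15.4%) and 3 lower (16.3%).

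**Figure D5:**
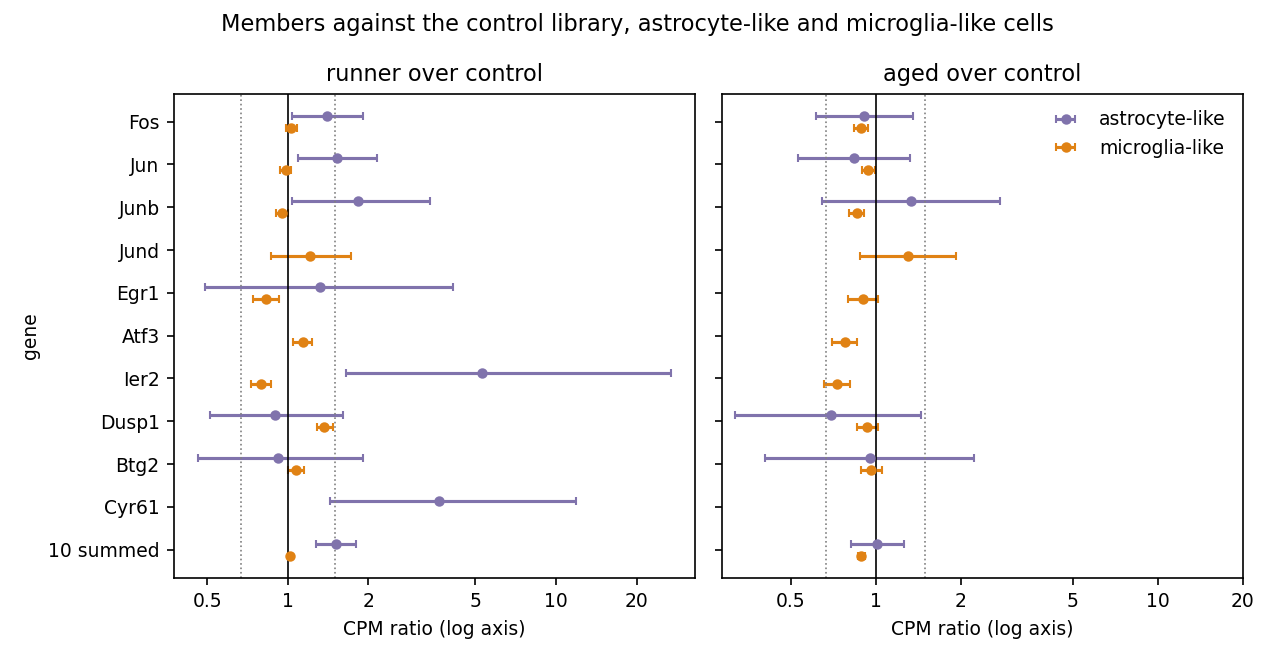
CPM ratio of each member to the control library (log axis) in astrocyte-like and microglia-like cells, for runner on the left and aged on the right; bars are exact 95% intervals for counting error and dotted lines mark 1.5-fold in each direction, and a gene with fewer than 20 UMIs in the pair of libraries is not drawn. In astrocyte-like cells Ier2 (5.28) and Cyr61 (3.66) stand furthest from 1 in the runner panel, and the microglia-like sum lies at 1.02 and 0.889.

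The wider immediate early programme was described from 5 lists of related genes. Among 11 AP-1 and ATF relatives, 9 were listed in all 3 tables, with Fosb and Atf4 among the most abundant. In microglia-like cells 6 of these were measured in runner and control, with ratios from 0.623 (Fosl2 and Mafk) to 0.866 (Batf3). Fosl2 and Mafk were lower by 1.5-fold or more (8.91% of all genes), each on 10 and 10 UMIs, and Fosb stood at 0.697 (0.609 to 0.8). Among 17 other immediate early transcription factors, led by Klf6, Klf4 and Klf2, 3 of 12 measured were 1.5-fold or more higher in runner microglia-like cells (14.7% of all genes), and 0 lower (8.91%): Egr2 at 2.29 (1.4 to 3.9), Egr3 at 1.58 (0.811 to 3.28) and Myc at 1.51 (1.04 to 2.24). Among 29 other early response genes and feedback inhibitors, led by Sgk1, Socs3 and Nfkbia, 0 of 18 were higher (14.7% of all genes) and 4 were lower (8.91%), among them Gadd45b at 0.563 (0.385 to 0.821) and Gadd45g at 0.518 (0.347 to 0.769), a pair of growth arrest genes. In the aged library the same list again had 0 of 18 higher (15.3% of all genes) and 4 lower (10.8%), with Gadd45b at 0.526 (0.322 to 0.839).

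In astrocyte-like cells, 6 of these 29 genes were measured in runner and control, of which 4 were 1.5-fold or more higher (19.4% of all genes) and 0 lower (10.1%). Btg1, a paralogue of Btg2, was at 205 against 92 CPM, a ratio of 2.23 (1.02 to 5.54), and at 1.95 (0.765 to 5.37) in aged over control. Socs3, a feedback inhibitor of cytokine signalling, had 20 UMIs in runner and 0 in control cells. The 11 neuronal activity effectors, led by Rheb, Nrn1 and Scg2, had 1 measured member in each comparison of microglia-like or astrocyte-like cells, and the 17 upstream regulators, led by Mef2c, Mef2a and Mapk3, had 0 measured in astrocyte-like cells. In microglia-like runner cells 0 of 8 upstream regulators were higher (14.7% of all genes) and 1 was lower (8.91%), Creb1, on 9 and 12 UMIs. In neuron cluster 6, runner over control, the measured neuronal activity effectors went both ways. Bdnf was at 3.06 (1.21 to 9.95), Rheb at 2.2 (1.03 to 5.4), Nrn1 at 1.78 (1.19 to 2.76) and Scg2 at 0.544 (0.292 to 1.04). The share of all genes past 1.5-fold in that class is not given, so these ratios do not set the list apart.

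Across 15 profiles of class and library, over the 5 classes with at least 20 cells in each library, the genes most like the summed members outside the group were Sdcbp (Pearson r 0.94), Socs3 (0.94), Fosb (0.93), Ly6e (0.93) and Tmx4 (0.93), among 4875 genes on the scale log2(CPM + 10). Fos, Junb, Jun, Egr1, Ier2 and Dusp1 themselves took ranks 1 to 6, which follows in part from their place in the sum. Btg2 was at rank 13, Atf3 at 92 and Jund at 455. Cyr61 was below the minimum of 100 UMIs for ranking, and its correlation with every other member was negative, from -0.48 with Atf3 to -0.15 with Jun. The profiles share libraries and differ in depth.

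Within microglia-like cells, other genes were compared between the 67, 102 and 46 cells with the most thinned member UMIs and the 65, 102 and 48 with the fewest in control, runner and aged. The zinc finger factor Klf6 was 4.33, 6.47 and 5.04 times higher in the member-rich cells, Tsc22d3, a glucocorticoid-induced gene, 3.86, 5.02 and 2.79 times, and Rgs2, a regulator of G protein signalling, 2.68, 3.49 and 3.04 times. Rgs3, Tmx4, Gm26532, Dleu2, Dusp6, Klf4 and Fosb completed the 10 genes with the highest minimum over the 3 libraries, of 1081 measured. Transcripts of the ribosome were among the 10 lowest, such as Rpl39 at 0.43, 0.367 and 0.348 and Rps12 at 0.441, 0.349 and 0.459. The member-rich cells were shallower, with medians of 1435, 1496 and 1612 UMIs against 1825, 2058 and 1831, and the part of depth was not tested.

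In astrocyte-like cells, member counts were so low that the same split set the 23, 58 and 21 thinned cells with any member UMI against the 26, 31 and 14 with none. In cells with a member the 15 astrocyte markers summed to 0.765 (0.7 to 0.835), 0.831 (0.782 to 0.885) and 0.865 (0.788 to 0.95) of their level in cells without. Aqp4, the astrocyte water channel, was among the 10 lowest genes of this split, at 0.284 (0.114 to 0.624), 0.764 (0.442 to 1.35) and 0.358 (0.196 to 0.632). Its runner interval includes 1. S1pr1, Bmyc, Chchd10, Slc4a4, Cadm1, Fgfr3, Asrgl1, Cox4i1 and Atp5o completed those 10, so not all were astrocyte markers. The 11 neural stem cell markers gave 1.07 (0.829 to 1.37), 1.09 (0.934 to 1.27) and 1.44 (1.13 to 1.86), so their interval excluded 1 in the aged library alone. Tmsb4x, the actin-binding thymosin, was 1.64, 2.3 and 2.04 times higher, Zbtb20 4.33, 1.92 and 1.44 times and Cd9 2.07, 1.44 and 2.12 times, and Rps3a1, Ank2, Arl6ip1, Dbx2, Rpl3, Rps24 and Msi2 completed the 10 highest of 354 measured. Microglial markers in these cells with a member and without stood at 270.0 against 289 CPM in control, 414 against 290.2 in runner and 649.5 against 252 in aged, the last from 24 and 7 UMIs, and their part in these ratios was not tested.

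Most barcodes of the tables lay outside the filter, and the members were lower in them. In CPM over UMIs that were not mitochondrially encoded, the members summed to 20700, 15979 and 18788 in barcodes under 10% mitochondrially encoded UMIs in control, runner and aged. They summed to 11153, 7875 and 8894 at 10 to 30%, and to 2072, 1006 and 1145 at 30% or more. Microglial markers were lower alongside, at 19742, 16108 and 23643 CPM in the first set of barcodes and 3114, 1834 and 3175 in the last, and the part of cell makeup was not tested. Jund, by contrast, stood at 143, 146 and 172 CPM in the first and 95.9, 104 and 95.3 in the last.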

How the data were processed

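Droplet single-cell RNA sequencing (10x Chromium 3′ v2, per the labels) of trypsin-dissociated dentate gyrus gave 3 libraries, and the authors deposited 1 table of whole-number UMI counts per library, keyed by gene symbol. The submitters' processing notes name Cell Ranger 2.1.1, Seurat 3.1.0 and GRCm38, without an annotation release or a rule for calling cells. Barcodes numbered 2356 in the control, 3328 in the runner and 2421 in the aged table, and UMIs 2330698, 3808360 and 2537567.

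Barcodes with at least 200 genes and under 10% mitochondrially encoded UMIs were kept, and 2, 6 and 2 Scrublet doublet calls were removed. Cells of all libraries were clustered together with Scanpy 1.11.5 (2000 variable genes, 30 principal components, 15 neighbours, Leiden resolution 1.0, seed 1) without batch correction and without the members, companion and stress lists. Clusters were named from marker lists. The members, lists and naming rule were chosen with earlier results of these data known. UMIs were summed per class and library and divided by the class total (CPM). Levels carry exact Poisson intervals, shares exact Clopper-Pearson intervals, and CPM ratios exact conditional binomial intervals, all for counting error only. A ratio was counted where the 2 libraries held at least 20 UMIs together. All 10 members were to be described. Of each companion list the 3 genes of most UMIs were named, with any gene past 1.5-fold, except where a gene is not reported here, and genes that accompany the members in single cells were the 10 with the most extreme least ratio over 3 libraries, of those with at least 20 UMIs in each. The ratio intervals and the thinning were tested on simulated data. Promoter windows came from RefSeq tables and positions from GENCODE M21, both on GRCm38.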

Additional observations from a re-analysis of the deposited data

Results flagged for a closer look

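Runner-over-control ratios of 4 members had counting intervals above 1 in one class and below 1 in another. With 1 library per group, the difference between the classes was not tested. Fos was at 1.4 in astrocyte-like and 1.54 in neuroblast-like cells but at 0.704 in oligodendrocyte-like and 0.683 in oligodendrocyte-precursor-like cells. Without the 3 cells of most member UMIs in each library, the oligodendrocyte-like ratio of Fos was 1.02 (0.724 to 1.46) and the oligodendrocyte-precursor-like ratio 0.78 (0.577 to 1.06), whereas Fos stood at 1.64 (1.14 to 2.41) in astrocyte-like and 2.16 (1.49 to 3.26) in neuroblast-like cells. Jun was at 1.53 in astrocyte-like and 0.553 in oligodendrocyte-like cells, and at 1.54 (1.04 to 2.36) and 0.629 (0.448 to 0.895) without those cells. Egr1 was at 1.64 in Cajal-Retzius-like and 0.827 in microglia-like cells, and at 1.54 (0.998 to 2.45) and 0.831 (0.743 to 0.93) without them. Ier2 was at 5.28 in astrocyte-like and 0.794 in microglia-like cells, and at 3.36 (0.773 to 30.5) and 0.794 (0.726 to 0.869) without them.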

How the results depend on the processing

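With 1 library per group, no test and no replicate could be varied. No paired analysis was possible because each group has 1 library. The summed runner ratio in astrocyte-like cells stayed within its counting interval of 1.27 to 1.8 under all 12 alternatives that gave a sum, from 1.4 with each cell weighted equally to 1.71 without the 3 cells of most member UMIs in each library. The aged ratio in these cells, 1.01, was 0.541 without those 3 cells and 0.772 under 5% mitochondrially encoded UMIs. In microglia-like cells the runner ratio of 1.02 was 0.988 without mitochondrially encoded and ribosomal protein genes, 0.996 with median-of-ratios size factors, 1.07 thinned, 1.08 under 5% and 1.08 under 20% mitochondrially encoded UMIs, 1.05 at resolution 2.0 and 1.04 with doublet calls kept. It was 1.05 with each cell weighted equally, 0.955 within the second largest cluster and 1.06 without the smallest. Its side of 1 thus depended on the scaling and on the cells used. The aged ratio of 0.889 was 0.841 with median-of-ratios size factors, 0.919 under 5% and 0.865 under 20% mitochondrially encoded UMIs and 0.86 within the second largest cluster. Jun in aged microglia-like cells, 0.94, was 1.02 under 5% mitochondrially encoded UMIs. The lowest ratio of microglia-like cells to the next class, 2.64, was 2.47 without mitochondrially encoded and ribosomal protein genes, 2.91 thinned, 2.78 under 20% mitochondrially encoded UMIs, 2.78 without the smallest cluster and 12.3 under 5%, where the Cajal-Retzius-like class had 14 aged cells and was not ranked. Among classes with at least 20 cells in every library, microglia-like cells were first in 3 of 3 libraries each time. Of aged astrocyte-like members, 2 of 9 were 1.5-fold or more higher with a minimum of 5 UMIs and 3 of 10 with none, 1 of 5 was lower with median-of-ratios size factors and 2 of 2 without the top 3 cells, where 0 of 5 were in either direction as reported. The cause of these shifts was not tested. The share of all genes past 1.5-fold was not taken under those settings, so the counts of aged astrocyte-like members do not set the members apart from other genes. Weighting each cell equally, leaving out the top 3 cells and the microglia-like clusters were alternatives chosen after seeing the data. Astrocyte-like counts of 3 to 60 UMIs in the control library limit single members there.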
